A study of Rattus norvegicus with 6 samples.

Results

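The genes described here write, remove and read DNA methylation. They are the 3 DNA methyltransferase genes Dnmt1, Dnmt3a and Dnmt3b (writers), the 3 methylcytosine dioxygenase genes Tet1, Tet2 and Tet3 (erasers) and the methyl-CpG-binding domain genes Mbd1, Mbd2 and Mbd3 (readers). They were chosen by gene symbol and make up 9 of the 38445 genes counted in the amygdala of adult male Sprague Dawley rats. Control rats received saline and ethanol rats received 1 g/kg ethanol by intraperitoneal injection, and amygdala tissue was collected about 1 h later. The study took tissue either at 1 h or directly after a maze test of anxiety begun at 1 h. Its main text does not say which held for these rats. All rats were labelled as wild type. Each library held the pooled RNA of 2 rats, so that the 6 rats of each group gave 3 libraries, and the spread between libraries is a spread between pools and not between single rats. In such bulk tissue, fewer cells of a type and less RNA per cell cannot be told apart.

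Writers transfer a methyl group to cytosine, mostly where a cytosine is followed by a guanine (CpG). Dnmt1 copies the methylation pattern to the new strand after DNA replication and is also expressed in neurons, which no longer divide, while Dnmt3a and Dnmt3b methylate sites that carried no mark. Tet enzymes oxidize methylated cytosine to hydroxymethylcytosine, which is abundant in the brain, and thereby open a path to its removal by base excision repair. Readers bind methylated CpG and bring repressor complexes to it. The study also assayed DNA methylation at selected promoters after ethanol, and the comparison described here concerns the mRNA of the enzymes and readers themselves.

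The total count per library lay between 62576504 and 70755739, and 3 counts corresponded to 0.0424 to 0.0479 CPM (counts scaled to library size). This floor covers counting error only. Markers of cortical-type glutamatergic and of striatal-type GABA neurons, 10 genes each, all passed the filter on low counts, and their summed levels overlapped between the groups. A negative log2 fold change was found in 1 of the 10 cortical-type and in 3 of the 10 striatal-type markers. The medians of these lists were 0.10 and 0.14. Summed markers of the choroid plexus epithelium, a tissue outside the amygdala, were 544 to 1178 CPM in the control libraries and 15, 16.3 and 506 CPM in ethanol replicates 1, 2 and 3. All 11 tested markers of this list of 12 had a negative log2 fold change, and the defining marker Ttr was at 758 CPM in controls and 145 CPM after ethanol. Summed ependymal markers were 81.0 to 104 CPM in controls and 64.1 to 78.8 CPM after ethanol. The part of these cell types in the levels of the 9 genes was not tested. Ethanol replicate 3 also had the highest sum of oligodendrocyte markers, 10512 CPM against 3939 to 9155 CPM in the other 5 libraries. Values with this library left out are given beside the differences of the 9 genes. Leaving it out keeps the ethanol libraries at 15 and 16.3 CPM of choroid plexus markers, the furthest from the controls.

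None of the 9 genes passed the test for a difference after ethanol. Libraries were scaled by TMM (trimmed mean of M values), and the quasi-likelihood test of edgeR was run on the 18141 genes left by the filter on low counts, with p-values adjusted over all of them (Benjamini-Hochberg) and called below 0.2, the threshold of the study. All 9 genes passed the filter, and 0 of 9 had an adjusted p below the threshold or an unadjusted p below 0.05 (smallest unadjusted p = 0.266 in edgeR, for Dnmt3a). Over all genes, 0% had an adjusted p below 0.2 and 4.15% had an unadjusted p below 0.05 by the same test. The study did report genes that differed at its threshold of 0.2, and its main text does not name the test used. DESeq2 called 75 of all genes, edgeR's likelihood ratio test called 77 and limma-voom called 0, and in each of these tests 0 of the 9 were called. The log2 fold changes of the 9 genes ran from -0.07 (Dnmt3a) to 0.10 (Mbd3) with a median of -0.03, beside a median of 0.01 over all genes tested. Of the 9, 3 were above 0 and 6 below, beside 9539 above and 8602 below among all genes tested. The Benjamini-Hochberg adjusted p was 1.0 for each of the 9 in the quasi-likelihood fit of edgeR.

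**Figure D1:**
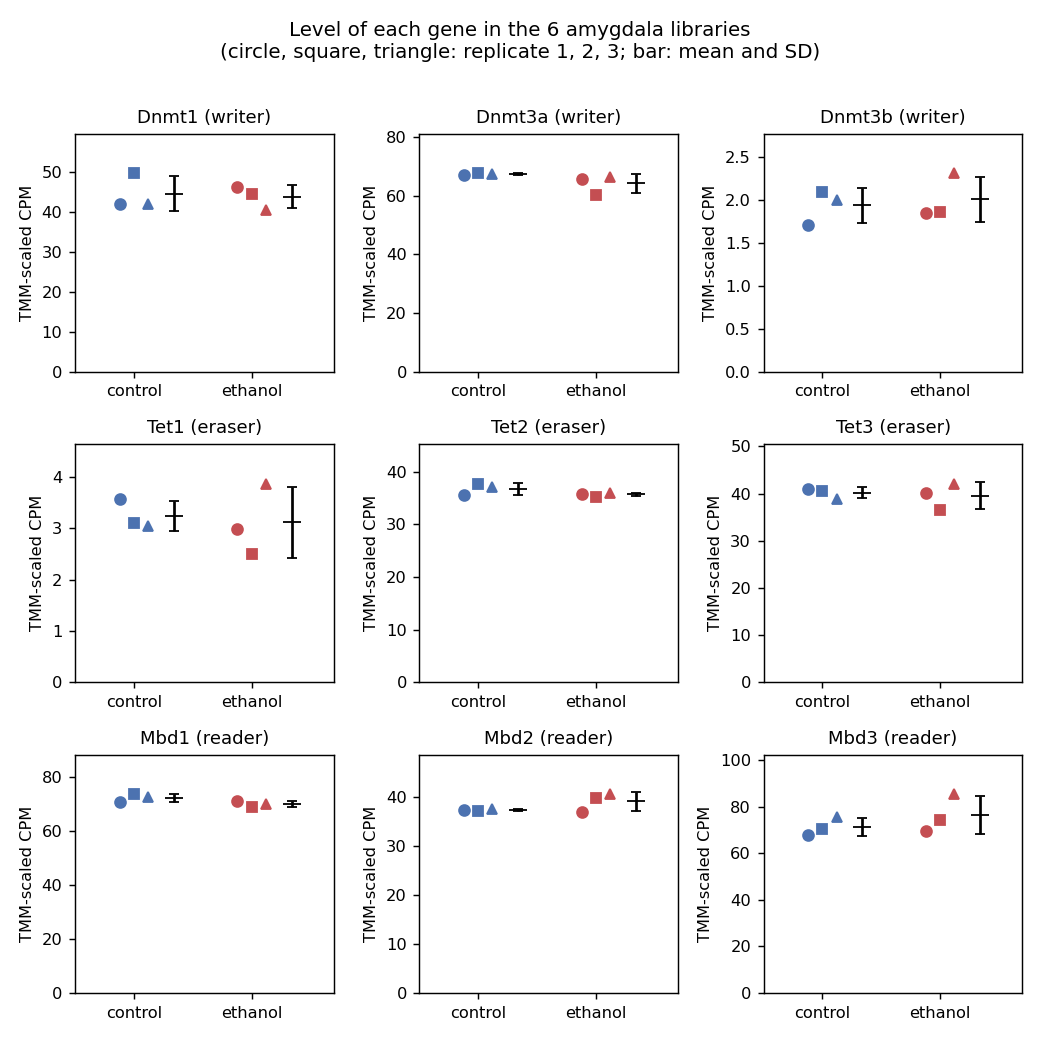
Level of each of the 9 genes in CPM scaled by TMM (vertical axes, from 0) in the 3 control (blue) and 3 ethanol (red) libraries, with the group mean and SD in black beside them. The groups overlap in 8 of the 9 genes, and in Dnmt3a the highest ethanol library is at 66.4 CPM and the lowest control library at 66.9 CPM.

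Among the writers, Dnmt3a was the only one whose groups did not overlap. Dnmt3a (NCBI gene 444984, a de novo enzyme) spans 28205375 to 28346052 on the forward strand of chromosome 6 in Rnor_6.0, the build of all gene positions given here, and has 26 merged exon blocks. Its level was 66.9, 67.6 and 67.3 CPM in control replicates 1, 2 and 3 and 65.7, 60.4 and 66.4 CPM in the ethanol replicates. All ethanol libraries were thus below all control libraries, but the gap between the groups was small beside the distance of ethanol replicate 2 from the other libraries. The log2 fold change was -0.07 (standard error 0.06, 95% interval -0.20 to 0.06), which leaves room for a fall of up to 13.0% or a rise of up to 4.53%. Groups that do not overlap, with ethanol on the lower side, were found in 1 of the 9 genes and in 5.19% of all genes tested. With ethanol on the higher side they were found in 0 of the 9 and in 3.66% of all genes, and for either direction the share of all genes was 8.85%. The log2 fold change of Dnmt3a was -0.09 with ethanol replicate 3 left out and -0.03 with ethanol replicate 2 left out.

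Its promoter is shown because Dnmt3a was the only gene of the set whose groups were apart under each of the 3 scalings tried. The 3 scalings use the same counts, so they are not separate support. Under TMM, the groups were apart in 8.85% of all genes tested, and the share apart under all 3 scalings was not determined. The window runs from 250 bases before to 50 bases after the transcription start in the RefSeq annotation of GRCr8, a later build than the one used for counting, at chr6:32598352-32598651 on the forward strand. The sequence is written 5′ to 3′ with each CpG, the dinucleotide on which these enzymes act, in capitals.
Dnmt3a: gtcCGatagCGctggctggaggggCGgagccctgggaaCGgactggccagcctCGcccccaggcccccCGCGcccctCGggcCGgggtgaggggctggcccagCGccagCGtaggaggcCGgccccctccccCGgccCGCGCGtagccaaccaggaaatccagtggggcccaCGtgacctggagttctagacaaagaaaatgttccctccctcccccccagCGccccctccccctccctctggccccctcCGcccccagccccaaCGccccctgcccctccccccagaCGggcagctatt

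Dnmt1 (NCBI gene 84350, chromosome 8 from 21922515 to 21968495, reverse strand), the maintenance enzyme, was at 42.1, 49.7 and 42.0 CPM in the control replicates and at 46.1, 44.6 and 40.6 CPM in the ethanol replicates. Control replicate 2 was the highest of the 6 libraries and ethanol replicate 3 the lowest. Its log2 fold change was -0.03 (standard error 0.09, 95% interval -0.23 to 0.18), and it changed sign to 0.06 without control replicate 2 and to 0.03 without ethanol replicate 3. Dnmt3b (NCBI gene 444985, chromosome 3 from 149131541 to 149170061, forward strand) was the least expressed writer, with counts of 112, 149 and 127 in control replicates 1, 2 and 3 and of 119, 120 and 161 in the ethanol replicates. The groups overlapped, with means of 1.94 ± 0.20 (SD, n = 3) for control and 2.01 ± 0.261 (SD, n = 3) for ethanol in CPM. The spread of Dnmt3b within groups was 1.30 times the spread that counting alone would give at this depth. The log2 fold change of Dnmt3b was 0.05 (standard error 0.16, 95% interval -0.31 to 0.42), and it changed sign to -0.03 without control replicate 1 and to -0.06 without ethanol replicate 3.

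The erasers all had mean levels slightly lower after ethanol, by less than their standard errors, and their groups overlapped. Tet2 (NCBI gene 310859, chromosome 2 from 238719389 to 238802975, reverse strand) was at 35.6, 37.7 and 37.1 CPM in the control replicates and at 35.8, 35.3 and 36.0 CPM in the ethanol replicates. Control replicate 1 lay among the ethanol libraries, and the other 2 control libraries lay above them. Its log2 fold change was -0.04 (standard error 0.06, 95% interval -0.17 to 0.09). It was -0.048 without ethanol replicate 3, -0.075 without control replicate 1 and -0.024 without control replicate 2. Tet2 was also one of the most even genes: its SD of log2 CPM within groups, 0.0326, was lower than in all but 2.02% of the genes tested, and 1.11 times what counting alone would give.

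Tet3 (NCBI gene 680576, chromosome 4 from 115060702 to 115160800, reverse strand) was at 41.1, 40.6 and 38.9 CPM in the control replicates and at 40.2, 36.5 and 42.1 CPM in the ethanol replicates. Ethanol replicates 2 and 3 were the lowest and the highest of the 6 libraries, with the controls between them. The log2 fold change of Tet3 was -0.02 (standard error 0.07, 95% interval -0.18 to 0.14), and it was -0.068 without ethanol replicate 3 and changed sign to 0.034 without ethanol replicate 2. Tet1 (NCBI gene 309902, chromosome 20 from 27359122 to 27438039, forward strand) was expressed at a low level, with counts of 233, 220 and 193 in the control replicates and of 191, 161 and 269 in the ethanol replicates. In CPM this was 3.56, 3.10 and 3.04 in controls and 2.98, 2.50 and 3.86 after ethanol, so that the ethanol libraries enclosed the controls as they did for Tet3. Tet1 was the least certain of the 9 genes. Its log2 fold change was -0.05 (standard error 0.18), and the 95% interval from -0.46 to 0.36 includes a fall of 27.5% and a rise of 28.0%. Leaving out ethanol replicate 3 moved it to -0.24, and it changed sign to 0.08 without ethanol replicate 2 and to 0.01 without control replicate 1.

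The promoters of Tet2 and Tet1 are shown because they span the range of CpG content in the set. Tet2 has 1 start in the RefSeq table, at chr2:224746137-224746436 on the reverse strand of GRCr8, and its window holds 39 CpG. Tet1 has 3 listed starts, all on the forward strand of GRCr8. The first window lies at chr20:25766556-25766855 and holds 3 CpG, and the second lies at chr20:25781119-25781418 and holds 16. The counts were summed over each gene and do not tell which start was used. CpG are in capitals, and each sequence is written 5′ to 3′ on the strand of its gene.
Tet2: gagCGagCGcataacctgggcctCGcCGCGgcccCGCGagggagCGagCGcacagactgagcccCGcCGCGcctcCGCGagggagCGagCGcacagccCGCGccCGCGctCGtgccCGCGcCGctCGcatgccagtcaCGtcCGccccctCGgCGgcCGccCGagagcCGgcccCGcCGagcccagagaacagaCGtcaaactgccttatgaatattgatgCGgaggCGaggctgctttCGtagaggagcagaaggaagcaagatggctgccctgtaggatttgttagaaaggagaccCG
Tet1, first start: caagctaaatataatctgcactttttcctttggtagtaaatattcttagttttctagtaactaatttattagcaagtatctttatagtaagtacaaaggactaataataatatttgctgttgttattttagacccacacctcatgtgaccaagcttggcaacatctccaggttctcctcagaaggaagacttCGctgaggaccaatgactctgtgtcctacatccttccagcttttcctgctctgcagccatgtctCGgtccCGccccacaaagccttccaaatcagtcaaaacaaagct
Tet1, second start: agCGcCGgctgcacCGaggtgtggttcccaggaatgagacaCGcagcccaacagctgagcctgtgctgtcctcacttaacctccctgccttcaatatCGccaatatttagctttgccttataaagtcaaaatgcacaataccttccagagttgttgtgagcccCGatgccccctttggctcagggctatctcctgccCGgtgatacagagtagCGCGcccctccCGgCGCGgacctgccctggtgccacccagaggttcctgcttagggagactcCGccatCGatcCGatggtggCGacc

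The readers had the highest levels of the set per exon length, and their groups overlapped. Mbd3, whose protein is a subunit of the nucleosome remodeling and deacetylase complex (NuRD) and in mammals has little preference for methylated DNA, had the largest difference of the 9. Mbd3 (NCBI gene 362834, chromosome 7 from 12179046 to 12186251, forward strand) was at 67.8, 70.4 and 75.7 CPM in the control replicates and at 69.5, 74.1 and 85.3 CPM in the ethanol replicates. Ethanol replicate 3 was the highest library, and the other 2 ethanol libraries lay within the range of the controls. The log2 fold change was 0.10 (standard error 0.09, 95% interval -0.10 to 0.30), and without ethanol replicate 3 it was 0.01. The spread of Mbd3 within groups was 5.86 times what counting alone would give, the highest ratio in the set.

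Mbd2 (NCBI gene 680172, chromosome 18 from 65814026 to 65885115, forward strand), which recruits NuRD to methylated CpG, was at 37.3, 37.1 and 37.5 CPM in the control replicates and at 37.0, 39.9 and 40.6 CPM in the ethanol replicates. Ethanol replicates 2 and 3 were above all controls and ethanol replicate 1 was below them. Its log2 fold change was 0.07 (standard error 0.06, 95% interval -0.07 to 0.21), 0.11 without ethanol replicate 1 and 0.04 without ethanol replicate 3. Mbd1 (NCBI gene 291439, chromosome 18 from 70248568 to 70263190, forward strand), a repressor that binds methylated CpG, was at 70.7, 73.5 and 72.5 CPM in the control replicates and at 71.0, 68.7 and 69.9 CPM in the ethanol replicates. Control replicate 1 lay below ethanol replicate 1. With library size alone as the scaling the groups of Mbd1 no longer overlapped, with ethanol replicate 3 at 70.8 CPM and control replicate 1 at 71.4 CPM. That scaling moved the median log2 fold change of all genes to -0.02, and its share of all genes without overlap was not determined. The log2 fold change of Mbd1 was -0.05 (standard error 0.05, 95% interval -0.16 to 0.07), the narrowest interval of the 9, and it was -0.047 without ethanol replicate 3.

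**Figure D2:**
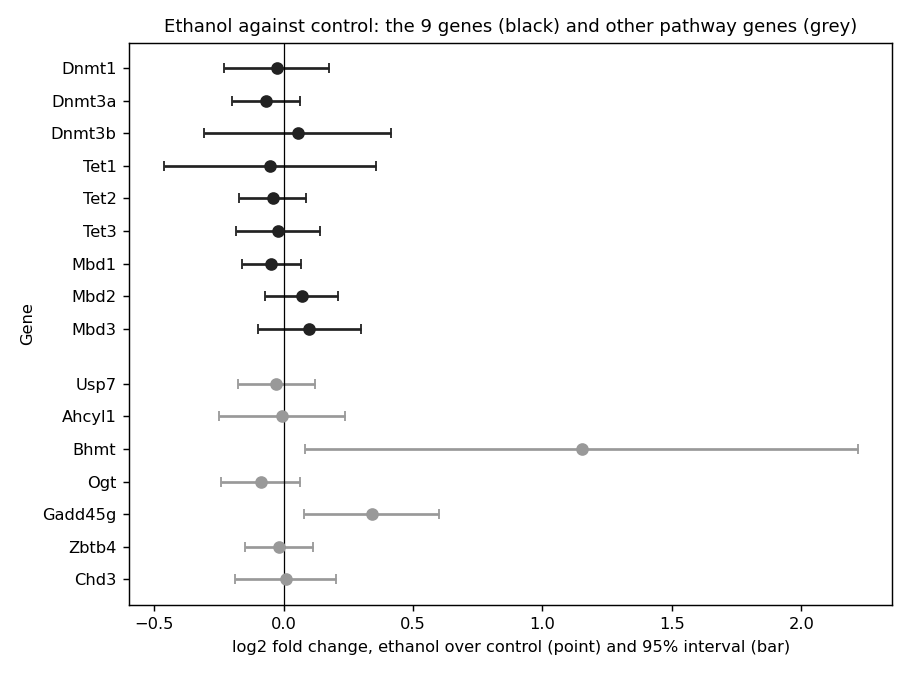
Log2 fold change of ethanol over control (points) with 95% intervals (bars) from the edgeR fit, for the 9 genes (black) and for other genes of the pathway (grey) that were named by a rule. The intervals of all 9 genes include 0. Those of Bhmt and Gadd45g do not, which follows from the rule that named them, an unadjusted p below 0.05 in the same edgeR fit. Neither passed the test after adjustment.

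**Figure D3:**
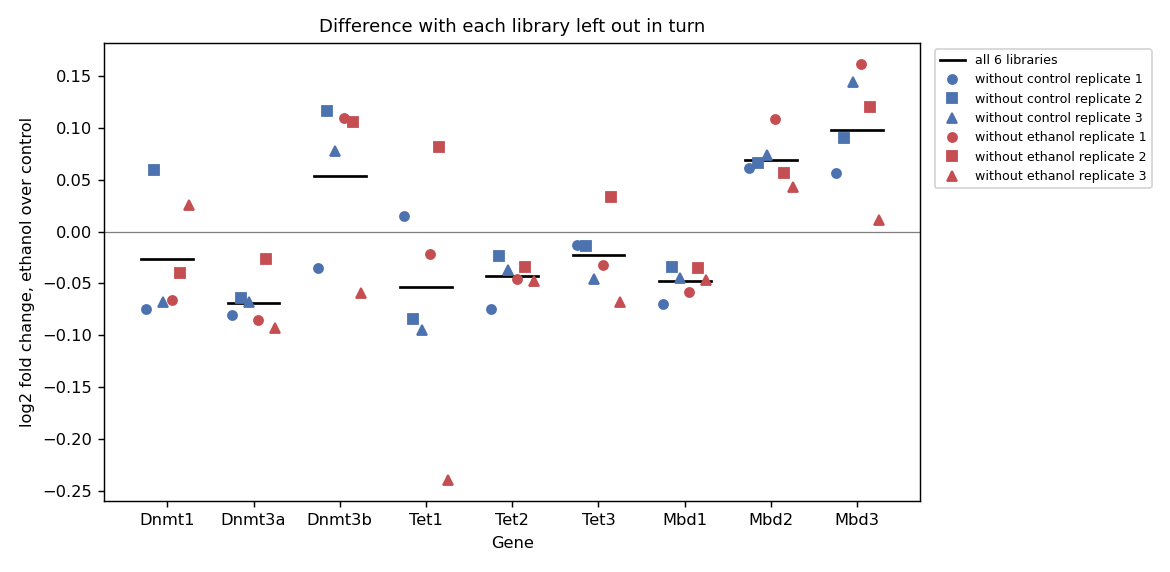
Log2 fold change of ethanol over control for each of the 9 genes with all 6 libraries (black line) and with each library left out in turn (control in blue, ethanol in red, replicate 1, 2 and 3 as circle, square and triangle). The values lie between -0.24 and 0.16, and those of Tet1 are spread the most.

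To compare levels between genes, CPM were divided by the exon length used for counting. On this scale of CPM per kilobase, the mean over the 6 libraries was 39.5 for Mbd3, 23.5 for Mbd2 and 11.5 for Mbd1, followed by 7.46 for Dnmt1 and 5.34 for Dnmt3a. Tet2 was at 3.91 and Tet3 at 2.37, and Dnmt3b and Tet1 were last at 0.461 and 0.459. Each of the first 7 genes was above the next in all 6 libraries, and the ranges of these neighbours did not touch. Dnmt3b and Tet1 could not be ordered, since Dnmt3b was the higher of the pair in 4 of 6 libraries and their ranges overlapped. The highest mean was 86.1 times the lowest. The order was the same with library size alone and with median-of-ratios size factors in place of TMM. It depends on the annotated length, which was 1867 bases for Mbd3 and 1628 bases for Mbd2 but 12299 bases for Dnmt3a and 16817 bases for Tet3.

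**Figure D4:**
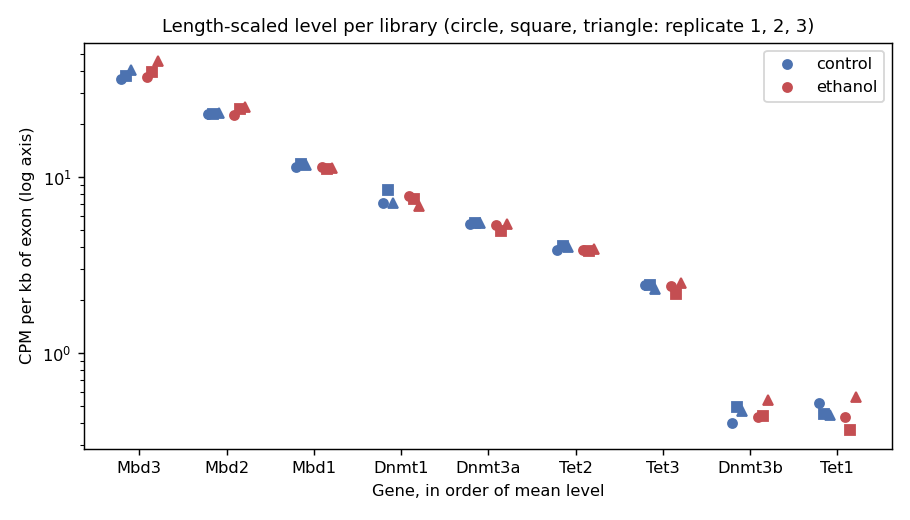
Level of the 9 genes in CPM per kilobase of exon (log axis), in the order of their means, with each library as a point (control in blue, ethanol in red, replicate 1, 2 and 3 as circle, square and triangle). Mbd3 is highest at 39.5, and Dnmt3b and Tet1 lie together at 0.461 and 0.459, well below Tet3 at 2.37.

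Within each class, the share of each member in the summed length-scaled level is given as a description, with no test. Dnmt1 made up 55.9% ± 2.15 (SD, n = 3) of the writers in controls and 56.5% ± 2.59 (SD, n = 3) after ethanol, and Dnmt3a 40.7% ± 2.18 and 39.9% ± 2.09. Tet2 made up 58.1% ± 1.48 of the erasers in controls and 57.9% ± 2.09 after ethanol, and Tet1 6.86% ± 0.633 and 6.73% ± 1.2. Mbd3 made up 52.4% ± 1.25 of the readers in controls and 53.5% ± 1.97 after ethanol, and Mbd2 31.5% ± 0.903 and 31.6% ± 1.07. The share of Mbd1 was 16.1% ± 0.443 in controls and 14.9% ± 1.14 after ethanol, and of the shares given here it alone differed by more than the SD of both groups. The summed length-scaled level was 13.5 ± 0.805 in controls and 13.1 ± 0.428 after ethanol for the writers and 6.82 ± 0.0955 and 6.65 ± 0.301 for the erasers. For the readers it was 72.8 ± 2.36 and 76.2 ± 5.32. Each of these 3 sums differed by less than the larger of its SDs.

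The 9 genes did not move as 1 block across the libraries. Of the 36 pairs of members, 23 had a positive Pearson correlation of log2 CPM over the 6 libraries, with a median of 0.206 and a range from -0.725 to 0.929. The correlations are descriptions, since the libraries share the groups and differ in their summed cell type markers. Tet2 and Mbd1 were the most alike (r = 0.929), followed by Tet1 and Tet3 (r = 0.924) and by Mbd2 and Mbd3 (r = 0.818). Tet1 and Tet3 shared the lowest library, ethanol replicate 2, and the highest, ethanol replicate 3. In the same 2 libraries, summed cortical-type neuron markers were at 1370 and 814 CPM and oligodendrocyte markers at 6613 and 10512 CPM. The part of these markers in the levels of Tet1 and Tet3 was not tested. Ethanol replicate 3 was the highest library for 5 of the 9 genes and ethanol replicate 2 the lowest for 5.

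Among the 14759 other genes with a mean of at least 1 CPM, the gene whose log2 CPM was most like that of a member over the 6 libraries was Slc37a1 for Dnmt1, Pabpn1 for Dnmt3a and Trim25 for Dnmt3b. For the erasers it was Slc35d3 for Tet1, Mmp2 for Tet2 and Zfp438 for Tet3, and for the readers it was Gtf2i for Mbd1, Bcl2l1 for Mbd2 and Pmm1 for Mbd3. Their Pearson correlations lay between 0.987 and 0.997. Each is the highest of 14759 correlations over only 6 libraries, so a high value was bound to be found. Each member had between 96 and 234 genes with a correlation above 0.9.

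The RefSeq promoter table of GRCr8 held windows for 8 of the 9 genes, all but Dnmt3b. Dnmt1, Dnmt3a, Tet2, Mbd1, Mbd2 and Mbd3 had 1 window each, with 17, 21, 39, 25, 39 and 23 CpG (the letters CG, which read the same on both strands) in 300 bases. The median of all 33469 windows was 7 CpG, and 29% of them held 17 or more. The 6 single windows were GC-rich, from 62.3% to 75.3% against a median of 51.7%, and 4 of them met a CpG island criterion (GC above 50% and observed over expected CpG above 0.6) that 31% of all windows met. Dnmt1 and Dnmt3a missed it, with observed over expected values of 0.58 and 0.53. Tet1 and Tet3 each had several listed starts, with 3 to 16 CpG for Tet1 and 3 to 23 for Tet3. These counts describe the reference sequence and say nothing about methylation of these promoters in the rats.

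**Figure D5:**
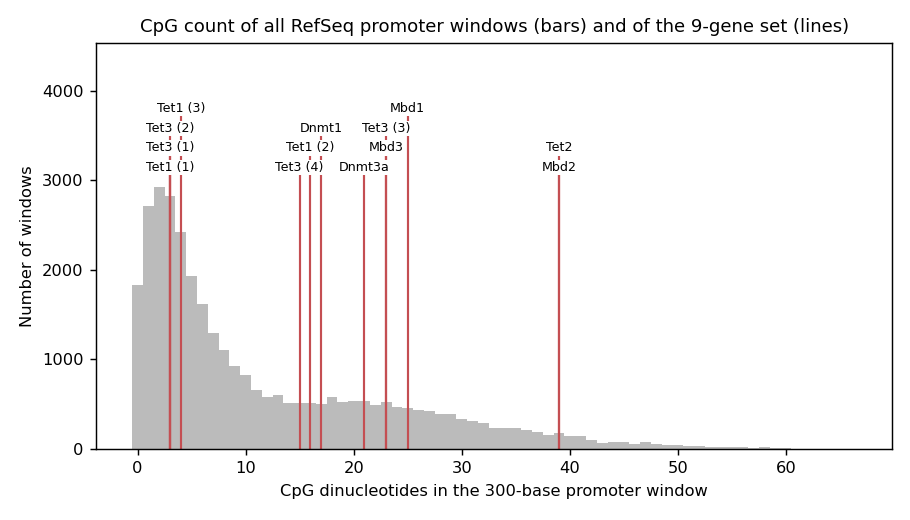
Number of CpG dinucleotides in the 300-base promoter window (horizontal axis) for all 33469 RefSeq windows of GRCr8 (grey bars, number of windows) and for the 13 windows of 8 of the 9 genes (red lines, with the number of the start in parentheses where a gene has several). The single windows lie between 17 and 39 CpG, to the right of the overall median of 7.

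Of 63 other genes of the pathway, listed from general knowledge, 56 passed the filter on low counts and 0 had a Benjamini-Hochberg adjusted p below 0.2 in edgeR. With an unadjusted p below 0.05 there were 2, both higher after ethanol, which is 3.57% of the 56 beside 4.15% of all genes. Of the 56, 28 had a log2 fold change above 0 and 28 below, and the median was 0.00024 on the log2 scale. Of the 7 genes that were not tested, the highest had 5 counts in a library, and Hells and Zbtb33, singled out after their values were seen, were listed at 0 in all 6 libraries. Why they were at 0 was not tested, and the values were not read as absence of expression.

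The 2 genes were Gadd45g and Bhmt. Gadd45g, a stress-induced gene linked to active DNA demethylation, was at 7.92, 8.81 and 8.55 CPM in the control replicates and at 9.28, 12 and 10.7 CPM in the ethanol replicates. All ethanol libraries were above all controls, with a log2 fold change of 0.34 (standard error 0.11, 95% interval 0.08 to 0.60, unadjusted p = 0.0174, Benjamini-Hochberg adjusted p = 1.0 in edgeR). Such groups, apart with ethanol on the higher side, were found in 4 of the 56 pathway genes and in 3.66% of all genes tested. For either direction they were found in 5 of the 56 and in 8.85% of all genes. Gadd45g belongs to the list of demethylation cofactors and base repair genes, of which 15 were tested. Of these 15, 11 had a log2 fold change above 0, beside 9539 of all 18141 genes tested, and the median of the list was 0.05. The most expressed gene of that list was Ogt, the O-GlcNAc transferase that binds Tet proteins, with 320 CPM in controls and 300.4 CPM after ethanol and a log2 fold change of -0.09.

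Bhmt, which remethylates homocysteine with betaine and is mainly a liver and kidney gene, had counts of only 20, 6 and 11 in the control replicates and of 22, 20 and 41 in the ethanol replicates. Control replicate 1 and ethanol replicate 2 had the same count, so that the groups were apart in CPM scaled by TMM but overlapped with library size alone as the scaling. Bhmt had a log2 fold change of 1.15 (standard error 0.46, 95% interval 0.08 to 2.22, unadjusted p = 0.0378, Benjamini-Hochberg adjusted p = 1.0 in edgeR). Of the 13 tested genes of the methyl donor cycle, 3 had a log2 fold change above 0 and 10 below, with a median of -0.04, and the most expressed was Ahcyl1, an S-adenosylhomocysteine hydrolase-like gene, with a log2 fold change of -0.01. The 4 tested maintenance and cofactor genes had a median of -0.03, and Usp7, a deubiquitinase that stabilizes the maintenance enzyme, had a log2 fold change of -0.03. The 11 tested genes of other CpG readers had a median of -0.02, with Zbtb4, a zinc finger reader of methylated CpG, at -0.02. The 13 NuRD partner genes, which encode the complex that the Mbd2 and Mbd3 proteins join, had a median of 0.01, with the remodeler Chd3 at 0.01.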

How the data were processed

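Per the labels, the authors made stranded mRNA libraries, sequenced single-end reads of 100 nt on 3 lanes, aligned them with STAR 2.7.0f to Rnor_6.0 and counted them with featureCounts (Subread 1.6.3). Per the file headers, reads were counted over exons of each gene with strand setting 2, and reads that map to several places or overlap several genes were left out. The authors deposited raw counts, without normalization, and the exon length of each gene. Exons of the 9 genes share no bases with another gene on either strand.

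Here counts were scaled by TMM in edgeR 4.0.16 (R 4.3.3) after filterByExpr (minimum of 10 counts, 15 in total), and the quasi-likelihood test of edgeR compared the groups (Benjamini-Hochberg adjustment over all genes tested). Standard errors are the log2 fold change over the square root of F, and intervals use the moderated degrees of freedom. Log2 CPM carry a prior count of 2. DESeq2 1.42.0, limma-voom (limma 3.58.1), edgeR's likelihood ratio test, other scalings, no filter, a replicate block and each library left out were alternatives. The script was tested on simulated data. Symbols were matched for 29322 identifiers. The genes and lists were chosen with earlier results of these data known. Named pathway genes are the most expressed of each list and those with an unadjusted p below 0.05. Outside these lists, the gene with the highest Pearson correlation to each of the 9 was also named.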

Additional observations from a re-analysis of the deposited data

How the results depend on the processing

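Over 13 alternatives for each of the 9 genes, 117 comparisons in all, 0 gave a call, 110 kept the direction and 7 reversed it, all 7 with a library left out. Leaving out single libraries gave log2 fold changes from -0.075 to 0.059 for Dnmt1, from -0.059 to 0.12 for Dnmt3b, from -0.24 to 0.082 for Tet1 and from -0.068 to 0.034 for Tet3. The number of genes called among all genes was 75 with DESeq2 and 77 with edgeR's likelihood ratio test, and with each library left out it ran from 0 to 83 (83 without ethanol replicate 3 and 4 without ethanol replicate 1). The cause was not tested. Library size alone moved the median log2 fold change of all genes to -0.02. Same-numbered libraries come from different rats, and their deviations correlated by 0.0264, 0.388 and 0.211. Control replicates 2 and 3 were most like the ethanol replicates of the same number, and control replicate 1 was most like ethanol replicate 3 (0.305). The numbers were not taken as a pairing, and whether same-numbered libraries shared a processing step was not tested. With the replicate block 0 genes were called, and 1015 had an unadjusted p below 0.05 against 752 without it.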
